A study of Mus musculus with 6 samples.

Results

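The simple-epithelium keratins Krt7, Krt8, Krt18, Krt19, Krt20, Krt23 and Krt80 were followed in hearts of mice 3 months old that lacked desmin, with and without TNF-α overexpression in the heart. They were taken by gene symbol, and all 7 had at least 1 probe set (9 in all) among the 18193 genes measured on 6 Affymetrix arrays. Where a gene had several probe sets, the one with the highest mean over the 6 arrays was its main one. The TNFαDes-/- group (3 arrays) carried the desmin deletion together with cardiac-specific TNF-α overexpression on a mixed 129SV/C57 background. The Des-/- group (3 arrays) carried the deletion alone on the 129SV strain, so transgene and strain cannot be told apart. Both groups lacked desmin per the labels, and hearts with intact desmin were not analysed here. The sources used here do not name the promoter of the transgene. Per the labels, RNA from 3 hearts of a genotype was combined before labelling, and the design text counts 3 mice per genotype. It is unknown whether each array carries its own animal or a repeat of that pool, so every p-value here reflects array-to-array spread, possibly only technical.

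Keratins are the intermediate filament proteins of epithelial cells. A filament is built from a type I and a type II keratin chain, and in simple, single-layered epithelia such as liver, gut and pancreatic duct the main partners are Krt18 (type I) and Krt8 (type II). In adult heart muscle the main intermediate filament protein is desmin, which connects the Z-discs with one another and with the cell membrane. Mice without desmin develop cardiomyopathy. Keratin 8 and keratin 18 are also known for holding hepatocytes together under mechanical and toxic stress, and both have been reported to bind parts of the TNF receptor signalling complex.

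Values are on the log2 scale as deposited, where a difference of 1 is a doubling. Because the table has no detection calls, each level was set beside the 95th percentile of 81 probe sets for olfactory, vomeronasal and trace-amine receptors, genes of the sensory epithelia that should have little or no transcript in heart. This mark lay at 4.79 to 5.02 on the TNFαDes-/- arrays and at 4.76 to 5.01 on the Des-/- arrays, just under the array medians (5.02 to 5.08 over all arrays). Of 12 cardiomyocyte marker genes, 12 were above the mark on all 6 arrays. Of the 12, 1 passed the test as higher (as did 15.2% of all genes), against 10 without Des-/- replicate 1. Their median change was 0.38, and it turned to -0.05 after quantile normalization and -0.10 after cyclic loess, each with 1 higher and 3 lower. Des-/- replicate 1 stood apart from the other arrays of its group: the SD of its log2 differences from replicates 2 and 3 was 0.336 and 0.341, against 0.157 between those arrays. Tnf itself stood at 5.94 ± 0.19 in TNFαDes-/- hearts and 5.87 ± 0.09 in Des-/- hearts (SD, n = 3 each), and the difference was not called over all probe sets (limma adjusted p = 0.766). The sources used here do not place its probes relative to the transgene. The brighter Des probe set read 8.79 ± 0.08 in TNFαDes-/- and 8.40 ± 0.06 in Des-/- hearts (SD, n = 3 each), far above the mark on all 6 arrays although both groups are labelled desmin-null. Where it lies with respect to the deleted part is unknown, so neither Tnf nor Des checks the labels.

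Krt18 and Krt8 rose steeply together, Krt80 rose slightly, Krt19 fell, and Krt7, Krt20 and Krt23 did not pass the test. Of the 7 genes, 3 were thus higher and 1 lower (limma, adjusted p under 0.05 over all genes). Over all 18193 genes, 15.2% were higher and 6.05% lower. A share of 2.84% passed the test with a change of at least 2-fold in either direction, as Krt18 and Krt8 did. The median change of the 7 genes was -0.02, beside 0.04 over all genes.

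**Figure D1:**
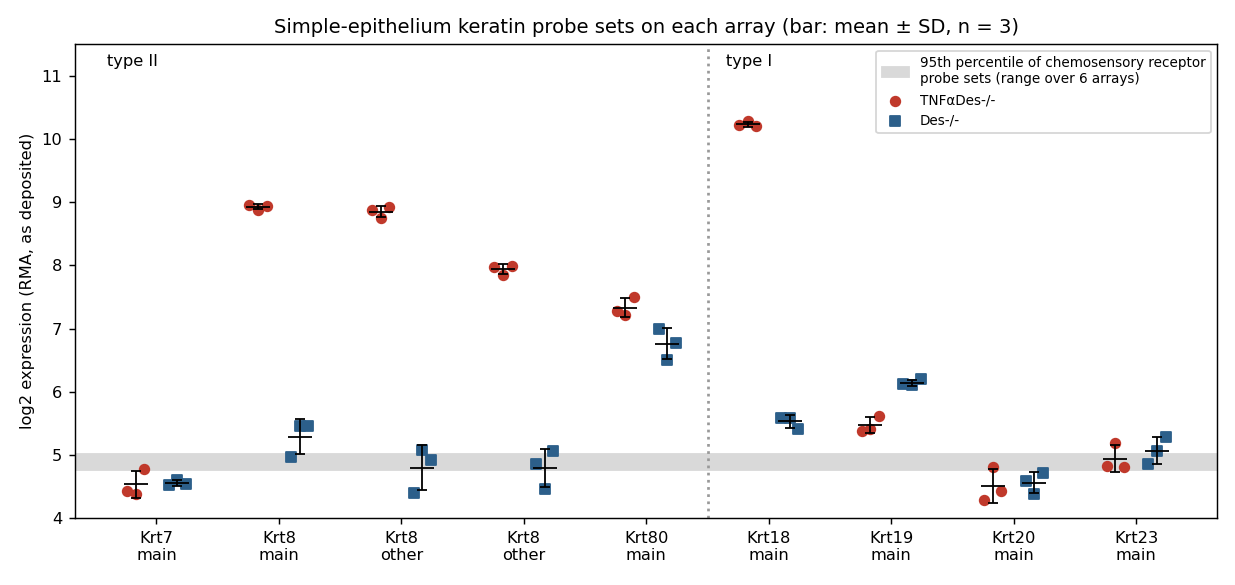
Log2 expression (y axis) of every probe set of the 7 keratin genes on each array, type II genes left and type I genes right. Circles are TNFαDes-/- arrays, squares are Des-/- arrays, bars give mean ± SD (n = 3) and the grey band is the range of the chemosensory 95th percentile. Krt18 and all 3 Krt8 probe sets sit at 7.84 or above on every TNFαDes-/- array and at 5.59 or below on every Des-/- array.

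Krt18, the type I chain, read 10.22, 10.28 and 10.20 on the TNFαDes-/- arrays, against 5.59, 5.59 and 5.41 on the Des-/- arrays. The arrays of each group lay within 0.07 (TNFαDes-/-) and 0.18 (Des-/-) of one another, and a gap of 4.61 separated the lowest TNFαDes-/- array from the highest Des-/- array. The change was 4.70 ± 0.10 (SE; 95% interval 4.48 to 4.92), or 26.0-fold (limma adjusted p = 1.58e-07), and only 1 of 18193 genes rose more. All 3 Des-/- readings lay above the chemosensory mark of their array, though within 1 log2 unit of it.

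Krt8, the type II partner, had 3 probe sets that all rose. The main one read 8.95, 8.88 and 8.94 on the TNFαDes-/- arrays and 4.97, 5.46 and 5.46 on the Des-/- arrays, where replicate 1 was the lowest. Its change was 3.63 ± 0.14 (SE; 95% interval 3.31 to 3.95), or 12.4-fold (limma adjusted p = 3.12e-06), the fifth largest rise of all genes. The second probe set read 8.88, 8.75 and 8.92 in TNFαDes-/- hearts and 4.40, 5.08 and 4.93 in Des-/- hearts, a 16.5-fold difference. The third read 7.98, 7.84 and 7.99 in TNFαDes-/- hearts and 4.86, 4.46 and 5.06 in Des-/- hearts, an 8.85-fold difference. Both of these carry the suffix _x_at, which marks possible cross-hybridisation, and both passed the test over all probe sets (limma adjusted p = 1.39e-05 and 2.36e-05, where 14.9% of 45037 probe sets passed). On each of these, 2 of 3 Des-/- arrays were above the chemosensory mark, against 3 of 3 on the main probe set. The 3 probe sets therefore share the direction and differ in size by less than 1 log2 unit (3.15 to 4.04), with Des-/- levels that touch background.

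Leaving out any single array moved the changes of Krt18 only between 4.64 and 4.73 and those of Krt8 between 3.47 and 3.71. Under quantile normalization, which forces all arrays onto one distribution, they were 4.56 and 3.53. In bulk RNA, more cells with keratin transcript and more transcript per cell cannot be told apart.

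**Figure D2:**
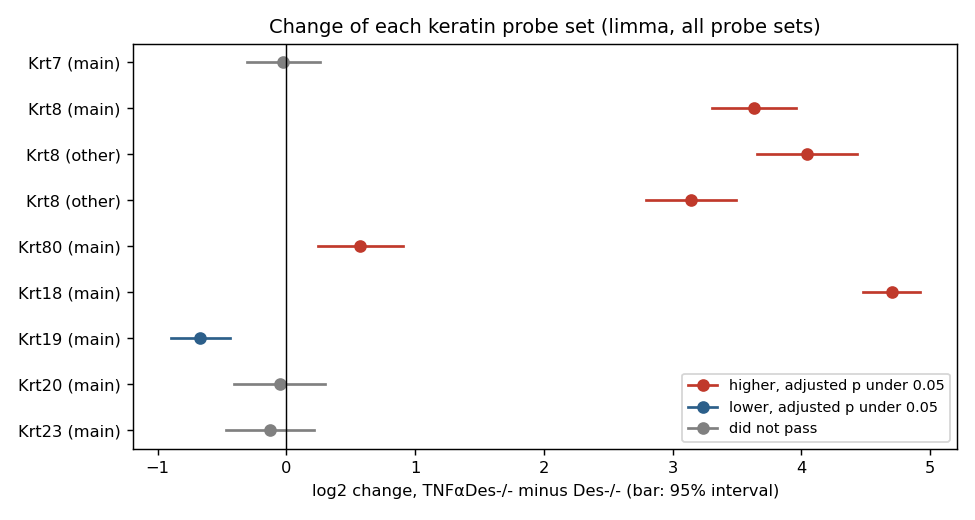
Log2 change of each keratin probe set, TNFαDes-/- minus Des-/- (x axis; points with 95% intervals from limma over all probe sets), with colour for the call at an adjusted p under 0.05. Krt18 and the 3 Krt8 probe sets lie between 3.15 and 4.70, Krt80 at 0.57, Krt19 at -0.67, and the intervals of Krt7, Krt20 and Krt23 include 0.

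Krt8 and Krt18 are neighbours on mouse chromosome 15, where Krt18 is the single type I gene inside the type II keratin cluster. In RefSeq order (GRCm38.p6), 2 long non-coding RNA genes lie between them, neither of which has a measured probe set here. The 5 nearest measured genes on each side did not share the rise: their changes ran from -0.39 to 0.36. On the Krt8 side, Krt76, Krt77 and Krt79 lay at or below the chemosensory mark on all 6 arrays, and Krt4 was above it on 1 array. Among the 10 flanking genes 1 passed as higher, Spryd3 (0.36 ± 0.11 SE, limma adjusted p = 0.0455), and 1 as lower, Krt77 (-0.39 ± 0.10, adjusted p = 0.0261). Over all genes, 15.2% and 6.05% did. The Spryd3 call ended without any single array of either group (adjusted p up to 0.149), after quantile normalization (0.23, adjusted p = 0.211) and with a replicate block (adjusted p = 0.0555). Krt78, the keratin gene next to Krt8, stood at 6.98 ± 0.29 in TNFαDes-/- hearts and 6.81 ± 0.19 in Des-/- hearts (SD, n = 3 each), and Eif4b, a translation initiation factor gene next to Krt18, at 10.37 ± 0.08 and 10.16 ± 0.14, with neither past the test. These flanking genes were chosen after the values of the keratins were seen.

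Because Krt8 and Krt18 moved together, the 250 bases before the RefSeq start of each gene are shown (GRCm38.p6, 5′ to 3′ along the gene). Krt8 lies on the minus strand at chr15:102004343-102004592, and Krt18 on the plus strand at chr15:102027966-102028215. Capitals mark matches, on either strand, to CNGGAA (the core read by Ets factors), CCNCNCCC (Klf factors), TGANTCA (AP-1) or the NF-κB consensus.
Krt8: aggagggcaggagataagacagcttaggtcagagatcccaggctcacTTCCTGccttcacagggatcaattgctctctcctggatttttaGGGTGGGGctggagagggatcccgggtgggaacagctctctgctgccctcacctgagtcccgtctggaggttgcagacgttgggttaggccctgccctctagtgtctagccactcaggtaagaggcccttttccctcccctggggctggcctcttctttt
Krt18: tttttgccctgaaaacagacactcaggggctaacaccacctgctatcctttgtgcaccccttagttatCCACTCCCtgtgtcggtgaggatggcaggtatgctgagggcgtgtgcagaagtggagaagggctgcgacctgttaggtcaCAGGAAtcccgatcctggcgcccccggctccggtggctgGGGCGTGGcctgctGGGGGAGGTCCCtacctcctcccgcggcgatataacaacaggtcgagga

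The Krt8 window held 1 Ets match, starting 203 bases before the gene start, and 1 Klf match at 160 bases. The Krt18 window held 1 Ets match at 102 bases, 3 Klf matches at 182, 63 and 49 bases, and 1 NF-κB match at 47 bases that overlaps the last of these. Over all 32851 RefSeq promoter windows of this length, 54.2% held the Ets core, 45.9% the Klf motif, 7.25% the NF-κB consensus and 6.75% the AP-1 motif. The shared Ets and Klf matches are thus of a kind that about every other promoter carries. Neither window held TGANTCA. Windows were found for 5 of the 7 genes. Krt7, which did not pass the test, held 2 Ets and 2 Klf matches, Krt20 held 4 and 2, and Krt23 held 1 NF-κB match and none of the other motifs. A match describes these letters only and is no evidence of binding.

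Krt80, a type II keratin found mainly in differentiating stratified epithelia and hair follicle, read 7.28, 7.22 and 7.51 on the TNFαDes-/- arrays and 6.995, 6.51 and 6.77 on the Des-/- arrays. The groups did not overlap, with a gap of 0.22 between the nearest arrays, smaller than the range within either group (0.29 in TNFαDes-/- and 0.49 in Des-/- hearts). Non-overlapping groups were seen for 4 of the 7 genes, beside 38.0% of all genes (24.3% wholly higher and 13.7% wholly lower in TNFαDes-/- hearts). The change of 0.57 ± 0.14 (SE; 1.49-fold, limma adjusted p = 0.0229) depended on single arrays, although all 6 levels were well above the chemosensory mark. The call was lost without TNFαDes-/- replicate 1 (0.60, adjusted p = 0.0683), TNFαDes-/- replicate 3 (0.49, 0.0971), Des-/- replicate 2 (0.45, 0.0815) or Des-/- replicate 3 (0.58, 0.0655).

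Krt7, the type II keratin of ducts and of glandular and transitional epithelia, ranged from 4.39 to 4.79 in TNFαDes-/- hearts and from 4.52 to 4.61 in Des-/- hearts. The groups overlapped, and 5 of 6 readings lay below the chemosensory mark of their array. Its change of -0.02 (95% interval -0.31 to 0.26, limma adjusted p = 0.923) therefore describes a probe set without a clear signal.

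Krt19, the shortest type I keratin, known from ductal epithelia and from mesothelium, was the one member that fell. It read 5.39, 5.42 and 5.62 on the TNFαDes-/- arrays and 6.12, 6.11 and 6.20 on the Des-/- arrays, all above the chemosensory mark. The groups were 0.49 apart at their nearest. The change was -0.67 ± 0.10 (SE; 95% interval -0.90 to -0.43; limma adjusted p = 0.00279), or 1.59-fold lower, and it stayed between -0.74 and -0.62 and past the test under each of 17 alternative settings. Krt19 thus moved opposite to Krt18, the other type I member past the test, and the 95% intervals of the 2 changes do not overlap.

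Krt20, a type I keratin of intestinal and urothelial cells, ranged from 4.29 to 4.82 in TNFαDes-/- hearts and from 4.39 to 4.72 in Des-/- hearts, below the chemosensory mark on all 6 arrays. Krt23, a type I keratin of digestive epithelia, ranged from 4.81 to 5.19 in TNFαDes-/- hearts and from 4.86 to 5.28 in Des-/- hearts, around the mark. Their changes were -0.05 (95% interval -0.40 to 0.30) and -0.13 (-0.46 to 0.21), with limma adjusted p = 0.857 and 0.603. For these 2 genes and Krt7 a change was not detectable at this signal, which does not show that transcript was absent or equal.

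The other keratins of the array did not follow Krt8 and Krt18. Of 40 further keratin genes measured (21 type I and 19 type II, from 47 entries), 0 passed as higher and 2 as lower (limma), beside 15.2% and 6.05% over all genes, and their changes ran from -0.89 to 0.25 (median -0.10). On all 6 arrays, 24 of the 40 lay at or below the chemosensory mark. Without Des-/- replicate 1 the count was 0 higher and 6 lower, and with any other array left out it was 0 higher and 1 to 3 lower. Krt222, a keratin-like gene listed with type I, fell by 0.89 on the log2 scale (6.20 ± 0.21 in TNFαDes-/- and 7.08 ± 0.09 in Des-/- hearts, SD, n = 3 each; limma adjusted p = 0.00198) and kept that call under each of 16 alternatives. Krt77, an epidermal type II keratin, stood at 4.19 ± 0.10 in TNFαDes-/- and 4.59 ± 0.08 in Des-/- hearts, below the mark on all arrays, and its call ended without any 1 of 5 arrays, all but Des-/- replicate 1 (adjusted p up to 0.101). The basal epidermal pair Krt5 and Krt14 changed by -0.31 ± 0.16 and -0.30 ± 0.16 (SE), and neither passed (limma adjusted p = 0.221 and 0.226), though Krt14 passed without TNFαDes-/- replicate 2 (-0.49, 0.0201). Krt14 lay below the mark on all 6 arrays, and Krt5 above it on all 6.

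**Figure D3:**
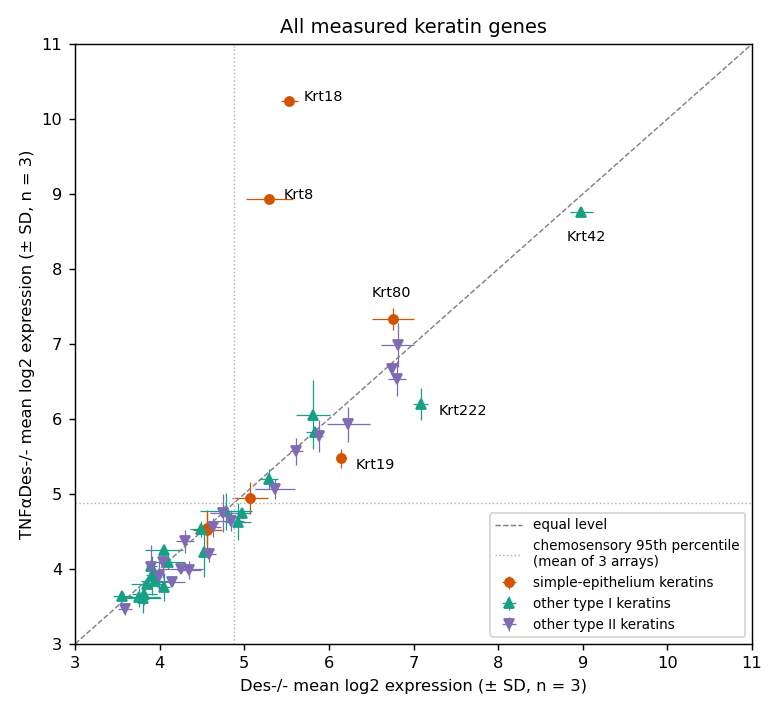
Mean log2 expression of each of the 47 measured keratin genes in TNFαDes-/- hearts (y axis) against Des-/- hearts (x axis), with SD bars (n = 3), and the chemosensory 95th percentile as dotted lines. Krt18 and Krt8 stand far above the line of equal level, and Krt19 and Krt222 below it. The 24 of 40 other keratins at or below the mark on all 6 arrays are among the points in the corner below both dotted lines.

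Markers of some tissues that normally carry these keratins were read beside them. Of 19 measured epithelial cell markers, 13 lay at or below the chemosensory mark on all 6 arrays, among them the adhesion protein gene Cdh1 (3.37 ± 0.03 in TNFαDes-/- and 3.27 ± 0.19 in Des-/- hearts, SD, n = 3 each), the claudins Cldn4 and Cldn7 and the splicing factor Esrp1. Another 5 were above it on all 6 arrays: Cldn3, Crb3, Epcam, St14 and Rab25. In TNFαDes-/- and Des-/- hearts, Cldn3 stood at 7.28 ± 0.23 and 7.53 ± 0.26, and Crb3 at 7.11 ± 0.32 and 7.46 ± 0.06. In the same order, Epcam stood at 6.52 ± 0.10 and 7.17 ± 0.52, St14 at 6.62 ± 0.07 and 5.78 ± 0.24, and Rab25 at 5.65 ± 0.34 and 5.74 ± 0.13. The mean log2 level of the list was 4.71 to 4.85 on the TNFαDes-/- arrays and 4.74 to 4.93 on the Des-/- arrays, so the groups overlapped. Of these markers 1 rose, the membrane protease St14 (0.84 ± 0.13 SE, limma adjusted p = 0.00296), and 0 fell. Over all genes, 15.2% rose and 6.05% fell. Epcam gave -0.65 ± 0.22 and did not pass (adjusted p = 0.073), though it did without Des-/- replicate 1 (-0.93, 0.00217) and with a replicate block (0.0271). The list counted 1 higher and 2 lower without Des-/- replicate 1, and 2 and 2 without TNFαDes-/- replicate 2.

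Lung epithelium and thymus, which lie beside the heart, showed no joint rise either. The counts of both lists stand beside 15.2% higher and 6.05% lower over all genes. Of 10 lung markers 1 was higher, Ager (0.58 ± 0.11 SE, limma adjusted p = 0.00599), but its probe sets disagreed, with -0.14 once _s_at and _x_at probe sets were left out. The Clara cell gene Scgb1a1 and the surfactant genes Sftpa1 and Sftpd lay below the chemosensory mark on all arrays. Above it on all 6 arrays were 2 of the 10, Ager and the surfactant gene Sftpb. Sftpb stood at 5.74 ± 0.41 in TNFαDes-/- and 5.79 ± 0.14 in Des-/- hearts (SD, n = 3 each). Sftpc stood at 4.96 ± 0.33 in TNFαDes-/- and 4.91 ± 0.17 in Des-/- hearts (SD, n = 3 each). The mean level of the lung list was 4.59 to 4.84 in TNFαDes-/- and 4.51 to 4.74 in Des-/- hearts. Of 10 thymus markers 0 were higher and 1, Psmb11, was lower at a level below the mark on all arrays (-0.40 ± 0.10 SE, adjusted p = 0.0262), a call that ended without TNFαDes-/- replicates 2 or 3 or Des-/- replicates 2 or 3 (up to 0.108). Of the thymus markers 3 were above the mark on all 6 arrays. These were Aire (5.63 ± 0.21 in TNFαDes-/- and 5.60 ± 0.11 in Des-/- hearts), Cd8a (5.88 ± 0.10 and 5.79 ± 0.60) and Cd3e (5.97 ± 0.003 and 6.27 ± 0.21). The mean level of the thymus list was 4.66 to 4.76 in TNFαDes-/- and 4.60 to 4.94 in Des-/- hearts.

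Mesothelium, the keratin-bearing layer that covers the heart, moved the way Krt19 did for several markers. Of 11 markers 4 were lower and 1 higher (median -0.27), where 6.05% and 15.2% of all genes were. The lower ones were Gpm6a (-0.81 ± 0.20 SE), Muc16 (-0.53 ± 0.10, below the chemosensory mark on all arrays), the uroplakin Upk3b (-0.44 ± 0.11) and Upk1b (-0.39 ± 0.10), with limma adjusted p = 0.0204, 0.00777, 0.0237 and 0.03. The higher one was the transcription factor Tbx18 (0.98 ± 0.21, adjusted p = 0.012). Wt1, the defining transcription factor of epicardium, changed by 0.01 ± 0.13 and Msln by -0.27 ± 0.12, and neither passed. The mean level of the list was 5.54 to 5.81 in TNFαDes-/- and 5.80 to 6.005 in Des-/- hearts, with the highest TNFαDes-/- array just over the lowest Des-/- array. The part of mesothelial cells in the fall of Krt19 was not tested.

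Several of these mesothelial calls depended on single arrays, and 1 to 4 markers were lower and 0 or 1 higher when 1 array was left out (1 lower without TNFαDes-/- replicate 1, 2 without TNFαDes-/- replicate 3 or Des-/- replicate 2). Upk3b did not pass without TNFαDes-/- replicate 1 (adjusted p = 0.101), TNFαDes-/- replicate 3 (0.0777) or Des-/- replicate 2 (0.0898). Gpm6a did not pass without TNFαDes-/- replicate 1 (0.0665) or replicate 2 (0.0532), nor with _s_at and _x_at probe sets left out (-0.47, 0.131). Upk1b changed by -0.05 with these left out (0.845) and also lost its call without TNFαDes-/- replicates 1 or 3 or Des-/- replicates 2 or 3 (up to 0.122). Tbx18 lost its call without TNFαDes-/- replicate 1 (0.0508) or replicate 3 (0.0506), and Muc16 kept its call under each of 15 alternatives.

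**Figure D4:**
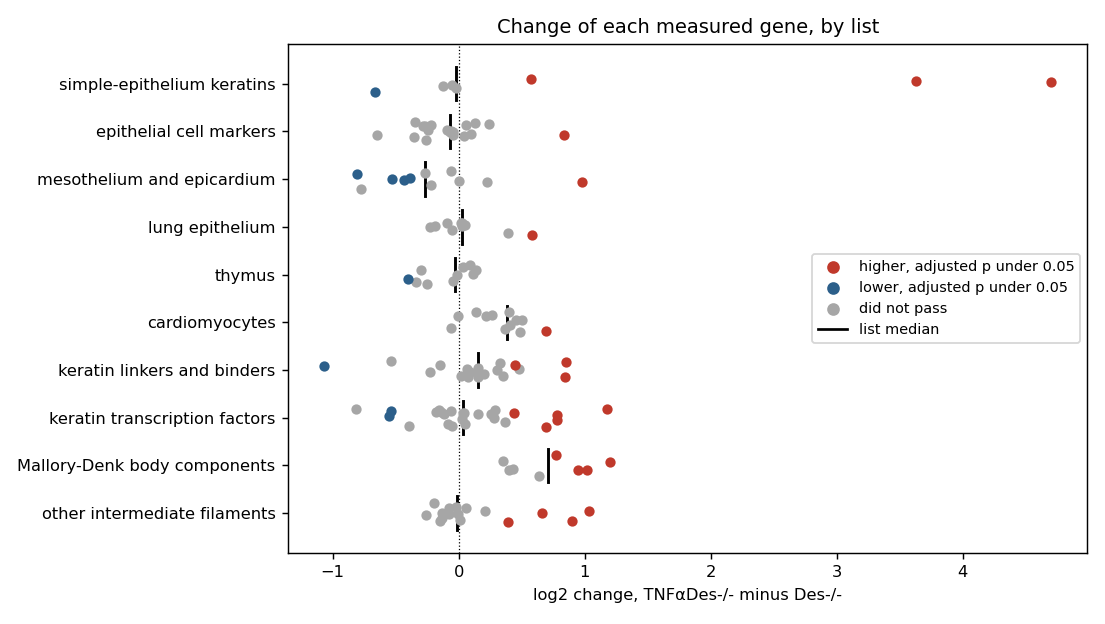
Log2 change, TNFαDes-/- minus Des-/-, of each measured gene (points, x axis) in the lists read beside the keratins (rows), with the list median as a black bar and colour for the call at an adjusted p under 0.05. Krt18 and Krt8 lie at 4.70 and 3.63, while every gene of the other lists lies between -1.07 and 1.20.

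The genes that keratin filaments attach to were mixed. Of 19 linkers and binders 3 rose and 1 fell (median 0.15, limma), close to the shares over all genes. Periplakin Ppl, a plakin that ties keratins to cell junctions, fell by 1.07 on the log2 scale (6.83 ± 0.09 in TNFαDes-/- and 7.89 ± 0.13 in Des-/- hearts, SD, n = 3 each; adjusted p = 0.000389). Dystonin Dst rose by 0.85 ± 0.11 (SE, adjusted p = 0.0012), though the mean of its probe sets gave 0.20 (0.124), as that of Ywhaz gave 0.34 (0.163). Ywhaz and Ywhah, which encode 14-3-3 proteins of the family that binds phosphorylated keratin 18, rose by 0.85 ± 0.23 and 0.45 ± 0.12 (adjusted p = 0.0315 and 0.0266). The Ywhaz call ended without any 1 of 5 arrays, all but Des-/- replicate 1 (up to 0.113), and the Ywhah call without TNFαDes-/- replicates 1 or 3 or Des-/- replicates 2 or 3 (up to 0.106) and after quantile normalization (0.18, 0.154). The cytolinkers plectin (Plec) and desmoplakin (Dsp) did not pass, and Dsp did without Des-/- replicate 1 (0.53, 0.0116). Without that array 7 of the 19 rose and 1 fell, and without Des-/- replicates 2 or 3 or TNFαDes-/- replicates 1 or 3 the count was 1 and 1.

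Keratin 8 and keratin 18 are the main filament proteins of Mallory-Denk bodies, the protein aggregates of stressed hepatocytes. Of 8 measured genes for other parts of these bodies, 4 rose and 0 fell (median 0.71, beside 0.04 over all genes, where 15.2% rose). The small heat shock protein gene Hspb1 rose by 1.20 ± 0.17 (SE), the crosslinking transglutaminase Tgm2 by 1.02 ± 0.14, the ubiquitin-binding Sqstm1 by 0.94 ± 0.15 and the small heat shock protein Cryab by 0.77 ± 0.15, with limma adjusted p = 0.00213, 0.0014, 0.00337 and 0.00764. Hspb1 stood at 13.84 ± 0.05 in TNFαDes-/- and 12.64 ± 0.38 in Des-/- hearts (SD, n = 3 each). All 4 averaged 11.31 or more in both groups, and the 99th percentile of all probe sets also differed, at 12.26 to 12.31 on the TNFαDes-/- arrays and at 12.27, 11.75 and 11.69 on the Des-/- arrays. Its part in these changes was not tested. These 4 calls held under each of 16 alternatives, and quantile normalization brought the changes to 0.85, 0.63, 0.57 and 0.45 and the list median to 0.39. Without Des-/- replicate 1, 7 of the 8 rose, and 6 without TNFαDes-/- replicate 2.

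Transcription factors known for control of keratin genes also went both ways, with 5 of 25 higher and 2 lower (median 0.03, limma). These shares of 20% and 8% were near the 15.2% and 6.05% over all genes. The AP-1 members Jund (1.17 ± 0.15 SE, adjusted p = 0.00106), Fosl2 (0.78 ± 0.14, 0.00551) and Fos (0.69 ± 0.19, 0.0356) rose, as did Klf4 (0.78 ± 0.19, 0.0212). The other AP-1 members of the list did not pass: Jun gave -0.39 (0.174), Junb 0.26 (0.428) and Fosl1 0.03 (0.899). Jun passed as lower after quantile normalization (-0.58, 0.00994) and cyclic loess (-0.61, 0.00984), and Junb as higher without Des-/- replicate 1 (0.52, 0.0114). The fifth to rise was the grainyhead factor Grhl1 (0.44 ± 0.10, 0.0157), below the chemosensory mark on all 3 Des-/- arrays and above it on 2 of 3 TNFαDes-/- arrays. Without TNFαDes-/- replicates 1 or 3 or Des-/- replicates 2 or 3, none of Fos (up to 0.134), Klf4 (up to 0.0916) and Grhl1 (up to 0.0724) passed. Grhl1 and the 2 that fell, Ets2 (-0.56 ± 0.10, 0.00564) and Tfap2a (-0.54 ± 0.10, 0.0081; -0.26 and 0.129 as the mean of its probe sets), lie outside the naming rule and were picked with their values in view. Tfap2a was below the chemosensory mark on all 3 TNFαDes-/- arrays and above it on 2 of 3 Des-/- arrays (means 4.41 and 4.95). Without Des-/- replicate 1 the list counted 8 higher and 3 lower, without Des-/- replicates 2 or 3 or TNFαDes-/- replicates 1 or 3 it counted 2 and 2, and after quantile normalization 5 and 5. Grhl2, another grainyhead factor, and the Ovol factors did not pass.

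Among the other intermediate filament genes, 4 of 16 rose and 0 fell (3 and 1 after quantile normalization or cyclic loess). Over all genes, 15.2% rose and 6.05% fell. The largest rise in the list, that of the muscle filament gene Synm (1.03 ± 0.21 SE, limma adjusted p = 0.00962), was far below those of Krt18 and Krt8. Sync rose by 0.90 ± 0.10 (adjusted p = 0.000739) and the nuclear lamin Lmna by 0.66 ± 0.16 (0.0178). Synm did not pass without TNFαDes-/- replicate 3 (0.95, 0.0527), nor Lmna without TNFαDes-/- replicates 1 or 3 or Des-/- replicates 2 or 3 (up to 0.0768). Des gave 0.39 ± 0.10 (0.0219) on its brighter probe set. Its other probe set read 4.72 ± 0.20 in TNFαDes-/- hearts, below the chemosensory mark on all 3 arrays, and 5.13 ± 0.15 in Des-/- hearts (SD, n = 3 each), and was not called over all probe sets (adjusted p = 0.0829). The call of the brighter one ended without any 1 of 5 arrays, all but Des-/- replicate 1 (up to 0.0929), and after quantile normalization (0.22, 0.199). Vim, the filament gene of mesenchymal cells, gave -0.13 (0.697) and was the gene that passed as lower after quantile normalization (-0.49, 0.00844) and cyclic loess (-0.52, 0.00666). The list counted 1 higher without TNFαDes-/- replicate 3 and 2 without TNFαDes-/- replicate 1, Des-/- replicate 2 or Des-/- replicate 3.

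The genes whose array profiles lay closest to those of the keratins were found from the root mean square distance between log2 profiles, each centred on its mean over the 6 arrays. Closest to Krt18 were the potassium channel subunit Kcne1 (distance 0.15), the slow myosin heavy chain Myh7 (0.52) and Krt8 (0.57). Closest to Krt8 were the phospholipase and acyltransferase Plaat1 (0.18), Myh7 (0.23) and the slow skeletal troponin Tnni1 (0.31). Closest to Krt19 were the transcription factor Zbtb46 (0.052), the secreted enzyme Pm20d1 (0.057) and the basement membrane protein ladinin Lad1 (0.059). Closest to Krt80 were the kinase Ikbkb (0.051), Zfp688 (0.051) and the thioredoxin-related Tmx1 (0.057). With probe sets averaged, Ikbkb changed by 0.11 instead of 0.53 (limma adjusted p = 0.385). Tmx1 then changed by 0.39 instead of 0.61 (0.0787). Ikbkb and Zfp688 did not pass without TNFαDes-/- replicates 1 or 3 or Des-/- replicates 2 or 3 (adjusted p up to 0.103 and 0.0842). Tmx1 did not pass without TNFαDes-/- replicates 1 or 3 or Des-/- replicate 2 (up to 0.0586). Genes with provisional names were left out of the search. The profiles were not scaled, so the size of the change largely sets the distance. The genes closest to Krt18 and Krt8 themselves changed by 3.21 to 4.58. Distances this small for Krt19 and Krt80 partly express that their own changes are small.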

How the data were processed

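Heart RNA was measured on 6 one-colour Affymetrix arrays, 3 per genotype, grouped and numbered from the sample titles. The values deposited by the authors are log2 expression per probe set, made with RMA (version not stated) per the submitters' processing notes. The columns do not share one distribution, so a quantile step over all arrays is not shown. The number of arrays limits the precision.

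Of 45101 probe sets, 64 controls were left out. Of the other 45037, 34945 carried 1 gene symbol in the platform annotation, 932 several and 9160 none, and only the first kind named genes. Sequences came from RefSeq (GRCm38.p6).

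Each gene was represented by its brightest probe set, with no filter. The genotypes were set against each other in limma 3.58.1 under R 4.3.3 (lmFit, eBayes; tested on simulated data), with Benjamini-Hochberg adjustment over all genes at 0.05. Single probe sets were adjusted over all probe sets. Changes are TNFαDes-/- minus Des-/-. Alternatives covered array scaling, the variance model, a replicate block, a filter on dim genes, the choice of probe sets and each array left out.

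Members, lists, motifs and tests were chosen with earlier results of these data known. Named genes were the members, Tnf and Des, up to 4 genes past the test per list (all for other keratins) and the 3 nearest profiles per member past the test. Genes that did not pass are named to describe a list.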

Additional observations from a re-analysis of the deposited data

How the results depend on the processing

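The calls of Krt8, Krt18 and Krt19 held under each of 17 alternatives (Krt8 3.47 to 3.71, Krt18 4.55 to 4.73, Krt19 -0.74 to -0.62), and Krt7, Krt20 and Krt23 passed under none of theirs. Krt80 kept its call under 13 of 17, and its change lay between 0.45 and 0.69 with single arrays left out (adjusted p up to 0.0971). The count of keratins higher was therefore 2 or 3, and that of keratins lower 1 throughout. Over all genes, quantile normalization gave 1896 lower, cyclic loess 1995 lower, and array weights 5501 higher and 2913 lower, against 2768 higher and 1101 lower as deposited. With single arrays left out, 1475 to 4257 genes were higher and 557 to 1557 lower. The share of higher calls was 71.5% as deposited, 53.6% after quantile normalization and 51.8% after cyclic loess. The cause was not tested. Counts of the other lists under these alternatives were added after seeing the data, as was the check of Spryd3. With array weights they were 0 higher and 13 lower for the other keratins, 2 and 7 for epithelial, 2 and 6 for mesothelial, 1 and 1 for lung, 0 and 4 for thymus, 10 and 4 for linkers, 8 and 0 for Mallory-Denk genes, 9 and 3 for transcription factors, 5 and 2 for other filaments and 10 and 0 for cardiomyocyte markers. Cyclic loess gave 0 and 5 for the other keratins. With dim genes left out the median change of all genes was 0.12, against 0.04.

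Deviations of same-numbered arrays correlated over genes at 0.248, 0.313 and -0.299. With 3 arrays per group the deviations within a group depend on one another. These values therefore cannot decide whether the replicate numbers pair the arrays. TNFαDes-/- replicate 3 correlated with Des-/- replicate 1 at 0.325, and TNFαDes-/- replicate 2 with Des-/- replicate 3 at 0.378. The remaining pairs lay between -0.425 and -0.194. The source of this pattern was not tested. With a replicate block, 3042 genes were higher and 1236 lower, Krt8 stood at 3.63 (adjusted p = 1.19e-07), and no keratin member changed its call. Krt7 and Krt20 have no value under the filter on dim genes, and all-gene counts were not recomputed over single probe sets. The dim Des-/- levels of Krt8, close to the chemosensory mark, limit how exactly its fold is known.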
